A study of Mus musculus with 12 samples.

Results

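Caveolins, ferlins, the channel-like protein anoctamin 5, the muscle protein MG53 and annexins serve in caveolae or in the resealing of torn plasma membrane, and the RNA of 10 such genes was followed in C2C12 muscle cells. The genes were Cav1, Cav2, Cav3, Dysf, Myof, Ano5, Trim72, Anxa1, Anxa2 and Anxa6. They were chosen by symbol, each symbol matched 1 Ensembl gene, and they made up 10 of the 46983 genes in the expression table.

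Caveolae are small flask-shaped pits of the plasma membrane. Caveolin 1 and caveolin 2 form their coat in many cell types, caveolin 3 takes that place in muscle, and cavins, pacsins and EHD proteins bend, cover and anchor the pits. When a muscle fibre is torn, calcium enters and draws vesicles and proteins to the wound: dysferlin and myoferlin are calcium-binding ferlins of membrane fusion, MG53 (the product of Trim72) gathers vesicles at the injury, and annexins bind exposed phospholipid and build a cap over the lesion. Loss of dysferlin, anoctamin 5 or caveolin 3 is a known cause of muscular dystrophy.

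C2C12 is a mouse myoblast line that fuses into myotubes when it differentiates. The study asked how excess PPARγ, a nuclear receptor of fat cell formation, alters that process, and sequenced RNA of 4 groups with 3 libraries each. WT_0d and WT_5d were C2C12 cells labelled wild type and named after the PB-IP vector in the sample titles, collected on 0d and 5d of differentiation. PPARγ/+_0d and PPARγ/+_5d were C2C12 cells given the PPARγ coding sequence in the PiggyBac vector PB-IP together with transposase, selected in puromycin, and collected on the same days. How many clones the selected cells came from is not given in the sources used here. The study's abstract calls the gain of function inducible and the deposited design text calls the line inducible with uninduced controls, whereas the study's methods name no inducer. The study calls its triplicates biological, but what separated them is not stated, so the p-values measure only the spread between these libraries, which may be technical.

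Levels are given in FPKM, fragments scaled by transcript length and by the size of the library. Each library held between 15557941 and 22013355 fragments on genes, as recovered from the FPKM values, with a median of 18737061. A gene of 1 fragment is barely measured at this depth, and intervals from fragments below cover counting error only. Changes are fitted log2 differences of FPKM + 0.1 from limma, with adjusted p-values over all 18023 genes that reached 0.1 FPKM in at least 3 libraries. Between days a gene was called at an unadjusted p of at most 0.05 and a change of at least 2-fold, the thresholds of the study's methods. Between cell types it was called at an adjusted p of at most 0.05 and 2-fold, and the interaction of cell type and day at an adjusted p of at most 0.05.

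Pparg, the overexpressed gene, stood at 7.56, 5.10 and 6.92 FPKM in WT_0d replicates 1, 2 and 3 and at 3.12, 3.53 and 4.59 FPKM in WT_5d. It stood at 44.4, 28.0 and 46.4 FPKM in PPARγ/+_0d and at 40.1, 44.1 and 92.7 FPKM in PPARγ/+_5d. Every PPARγ/+ library lay above every WT library, so the labels of cell type held, with PPARγ/+_5d replicate 3 the highest.

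A library stood apart in each WT group. WT_5d replicate 3 had less of the differentiation genes than the other 2 libraries of WT_5d: Myog, a transcription factor of muscle differentiation, stood at 271, 215 and 90.0 FPKM in WT_5d replicates 1, 2 and 3. Myh3, the embryonic myosin heavy chain, stood at 527, 307 and 87.9 FPKM in the same libraries. In PPARγ/+_5d they lay at 78.8, 85.9 and 90.3 FPKM for Myog and at 42.2, 49.7 and 56.1 FPKM for Myh3. WT_5d replicate 3 thus lay among the PPARγ/+_5d libraries for Myog and above all of them for Myh3. The correlation of log2 values between libraries of a group was 0.9612 to 0.9773 in WT_5d and 0.9765 to 0.9821 in the other groups. On 0d, WT_0d replicate 2 had the most Myog, at 15.7 FPKM beside 2.69 and 1.47 FPKM in WT_0d replicates 1 and 3. Its Myh3 stood at 7.72 FPKM, beside 0.706 and 0.435 FPKM. Both libraries were singled out from their values, and the members they moved most are given with and without them.

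Which of the 10 genes changed between days? In WT cells 4 of them rose, Cav3, Trim72, Ano5 and Dysf, beside 8.94% of all genes tested, and Anxa2 alone fell, beside 7.53% of all genes. In PPARγ/+ cells Cav3, Trim72, Ano5 and Dysf rose, beside 9.11% of all genes. No member was called as a fall by limma there, where 6.06% of all genes were, although 3 members (Anxa1, Anxa2 and Cav2) had a negative change at an unadjusted p under 0.05, and limma-voom on recovered fragments called no fall either. The libraries of 0d and 5d did not overlap for 7 of the 10 genes in WT cells (51.1% of all genes) and for 9 in PPARγ/+ cells (58.1% of all genes). All 10 passed the filter on low values, but Cav3 reached 0.1 FPKM on 0d in 1 library only and so entered through its libraries on 5d. For the 10 genes together the median change came to -0.02 (WT) and 0.26 (PPARγ/+), beside -0.08 and -0.10 over all genes. Scaling the libraries by median ratios moved those all-gene medians up by 0.10 and 0.12, and relative to the median of all genes Dysf then changed by 1.78 and 1.20 and Anxa2 by -1.22 and -0.74 in WT and PPARγ/+ cells.

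Did the cell types differ? On 0d limma called 0 of the 10 genes between PPARγ/+ and WT cells, beside 1.59% of all genes, while 4 (Cav1, Ano5, Anxa1 and Anxa6) had an unadjusted p under 0.05 and limma-voom on recovered fragments called 1, Ano5. On 5d limma called 0, beside 0.155% of all genes, with 4 (Cav3, Ano5, Trim72 and Anxa2) at an unadjusted p under 0.05 and 0 called by limma-voom. Without WT_5d replicate 3, Cav3, Ano5 and Trim72 were called lower in PPARγ/+_5d, as were 508 genes in all (2.82% of those tested), while 215 genes were called higher. That library was singled out for its low differentiation genes. Calls and p-values without it, here and below, are therefore a description and not evidence that the cell types differ. The interaction was called by limma for 0 of the 10 genes, beside 0.76% of all genes, with 3 (Anxa1, Anxa2 and Anxa6) at an unadjusted p under 0.05 and 0 called by limma-voom. Without WT_5d replicate 3 it was called for 2, Dysf and Anxa1, and for 2.92% of all genes. Libraries of the cell types did not overlap for 6 of the 10 genes on 0d (26.8% of all genes) and for 5 on 5d (18.5% of all genes). At an unadjusted p under 0.05 were 46.8% of all genes between days in WT cells, 54.4% in PPARγ/+ cells, 21.7% between cell types on 0d, 12.7% on 5d and 12% in the interaction, the shares to hold beside every such count here and below. The comparisons share groups: WT_0d, for instance, enters the change of WT cells, the comparison on 0d and the interaction.

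The 10 genes spanned a wide range of levels, and their order shifted with differentiation. In WT_0d the order of mean FPKM was Anxa2 at 408 ± 42.0 (SD, n = 3), Anxa1 at 248 ± 18.9 and Anxa6 at 144 ± 18.3, with no overlap of their libraries. Myof at 91.7 ± 9.68 FPKM and Cav1 at 91.7 ± 22.1 FPKM followed and could not be ordered, then came Cav2 at 9.83 ± 2.11 FPKM and Dysf at 1.84 ± 0.106 FPKM. Ano5, Trim72 and Cav3 were lowest in WT_0d, at 0.428 ± 0.330, 0.325 ± 0.272 and 0.131 ± 0.125 FPKM, and overlapped. In WT_5d Anxa6 (135 ± 44.1 FPKM) overlapped both Anxa2 (162 ± 7.99 FPKM) and Anxa1 (129 ± 17.1 FPKM), and Trim72 (30.7 ± 19.4 FPKM) had moved above Cav2 (6.84 ± 0.872 FPKM). In PPARγ/+_5d Trim72 (8.60 ± 0.755 FPKM) and Cav2 (7.36 ± 0.755 FPKM) overlapped, and Ano5 was the lowest at 0.310 ± 0.0676 FPKM. Summed over the 10 genes, the level was 872, 1061 and 1053 FPKM in WT_0d and 691, 661 and 591 FPKM in WT_5d. It was 912, 809 and 887 FPKM in PPARγ/+_0d and 671, 689 and 705 FPKM in PPARγ/+_5d, so that every library on 5d lay below every library on 0d, and Anxa2 made up 40.3 to 44.2% of the sum on 0d and 22.2 to 31.1% on 5d.

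**Figure D1:**
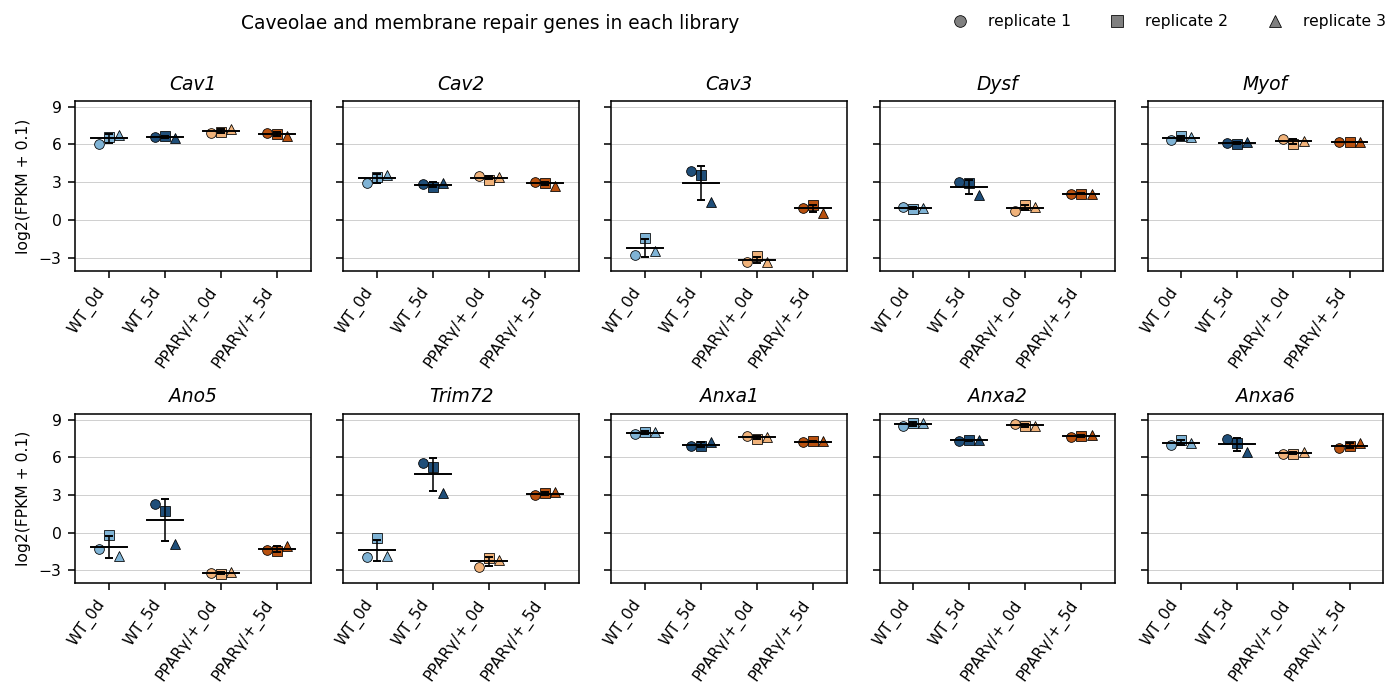
Level of each of the 10 genes as log2(FPKM + 0.1) on 1 shared vertical axis, in 12 libraries of 4 groups, with points for libraries (the symbol gives the replicate number), lines for group means and error bars of 1 SD. Cav3, Ano5 and Trim72 span the widest ranges and show WT_5d replicate 3 (triangle) below the other libraries of WT_5d, while the annexins, Cav1 and Myof stay high in all groups.

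Cav1, the main coat protein of caveolae outside muscle, stood at 67.1, 98.1 and 109.8 FPKM in WT_0d replicates 1, 2 and 3 and at 95.7, 99.4 and 93.2 FPKM in WT_5d. It stood at 123, 127 and 149.7 FPKM in PPARγ/+_0d and at 121, 116 and 99.6 FPKM in PPARγ/+_5d. WT_0d replicate 1 was the lowest library, the PPARγ/+_0d libraries lay above all WT libraries, and the days overlapped in WT cells. Its difference between the cell types on 0d was 0.56 (SE 0.19) in PPARγ/+ over WT cells, with an adjusted p of 0.174 in limma, and no change of Cav1 was called in any of the 5 comparisons. Cav2, which joins Cav1 in the coat, stood at 7.45, 10.5 and 11.5 FPKM in WT_0d and at 7.25, 5.84 and 7.44 FPKM in WT_5d. It stood at 10.97, 9.00 and 10.7 FPKM in PPARγ/+_0d and at 7.92, 7.66 and 6.50 FPKM in PPARγ/+_5d. Its libraries on 5d lay below those on 0d in both cell types, by a fitted -0.50 (SE 0.19, limma adjusted p = 0.0780) in WT cells and -0.47 (SE 0.11, adjusted p = 0.0114) in PPARγ/+ cells, short of 2-fold in each. The ratio of Cav1 to Cav2, both in FPKM, was 9.00 to 9.56 in WT_0d, 12.5 to 17.0 in WT_5d, 11.2 to 14.1 in PPARγ/+_0d and 15.1 to 15.3 in PPARγ/+_5d, so that WT_0d lay below the other 3 groups.

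Cav3, the caveolin of muscle, was nearly silent on 0d and rose with differentiation. It stood at 0.0446, 0.274 and 0.0747 FPKM in WT_0d replicates 1, 2 and 3, from 1, 8 and 2 fragments, and at 14.9, 11.5 and 2.50 FPKM in WT_5d, from 439, 257 and 66 fragments. In PPARγ/+_0d it was at 0, 0.0331 and 0 FPKM, a total of 1 fragment, and in PPARγ/+_5d at 1.79, 2.21 and 1.40 FPKM, from 43, 55 and 30 fragments. The days did not overlap in either cell type, WT_5d replicate 3 was the lowest of its group, and it still lay above the 3 PPARγ/+_5d libraries. The fitted rise was 5.18 (SE 0.72, limma adjusted p = 0.00265) in WT cells and 4.09 (SE 0.24, adjusted p = 5.1e-05) in PPARγ/+ cells, with all 3 libraries on 5d higher in each. Without WT_5d replicate 3 the rise in WT cells was 5.96 (SE 0.45, limma adjusted p = 0.00119). These sizes depend on the 0.1 FPKM added before the log, and ratios of summed fragments per mapped fragment were 69.5 (95% exact binomial interval 38.6 to 139.8) in WT cells and 152 (26.8 to 6057) in PPARγ/+ cells. WT_0d replicate 2 held 8 of the 11 fragments of WT_0d, and without it the ratio in WT cells was 160.0 (54.5 to 778), so the order of the cell types by this ratio was not fixed. The ratio in PPARγ/+ cells rested on the 1 fragment of PPARγ/+_0d replicate 2: it was 101 without PPARγ/+_0d replicate 1, 106 without PPARγ/+_0d replicate 3, and was not finite without PPARγ/+_0d replicate 2. On 0d the fitted difference of PPARγ/+ from WT cells was -0.94 and was not called. Without WT_0d replicate 2 it was -0.53 (SE 0.20, limma adjusted p = 0.283). Between the cell types on 5d the fitted difference was -2.04 (SE 0.67, limma adjusted p = 0.312) with all libraries. Without WT_5d replicate 3 it was -2.82 (SE 0.22, adjusted p = 0.00736), while without WT_5d replicate 1 it was -1.56 (adjusted p = 0.564), and over all alternatives the adjusted p ranged from 0.00736 to 0.641. The interaction for Cav3 was -1.10 (SE 0.80, limma adjusted p = 0.650), and without WT_5d replicate 3 it was -1.88 (SE 0.50, adjusted p = 0.0818). With 1 library left out at a time it ranged from -1.88 to -0.61, but it turned to 0.66 with 0.01 FPKM added and to 0.20 in limma-voom, so whether the rise differed between cell types could not be told. Cav3 made up 12.6, 9.86 and 2.43% of the caveolin FPKM in WT_5d and 1.37, 1.76 and 1.30% in PPARγ/+_5d, where Cav1 remained the most abundant caveolin in every library.

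Of 11 partners of caveolae (4 cavins, 3 pacsins and 4 EHD proteins), all were tested. In WT cells 3 rose (Cavin4, Pacsin1 and Pacsin3), beside 8.94% of all genes. In PPARγ/+ cells 2 rose (Cavin2 and Pacsin1), beside 9.11% of all genes. Pacsin1 had at most 3 fragments in any library on 0d, so that it passed the filter through its libraries on 5d. No fall of a partner was called by limma, beside 7.53% of all genes in WT and 6.06% in PPARγ/+ cells. In each cell type 8 of the 11 partners had an unadjusted p under 0.05. Their median change came to 0.52 (WT) and 0.28 (PPARγ/+). Cavin4, the cavin of muscle, stood at 18.7, 33.7 and 28.2 FPKM in WT_0d and at 102, 89.5 and 49.9 FPKM in WT_5d. It stood at 32.3, 30.1 and 32.3 FPKM in PPARγ/+_0d and at 41.2, 41.2 and 40.3 FPKM in PPARγ/+_5d. WT_5d replicate 3 was again the lowest of its group yet above every PPARγ/+_5d library. The change was 1.56 (SE 0.33, limma adjusted p = 0.0117) in WT cells and 0.37 (SE 0.05, adjusted p = 0.00106), short of 2-fold, in PPARγ/+ cells, and the interaction of -1.18 (SE 0.35) had an adjusted p of 0.183. Cavin2, which bends the caveolar membrane, stood at 5.62, 5.20 and 7.30 FPKM in PPARγ/+_0d and at 15.9, 16.1 and 19.9 FPKM in PPARγ/+_5d, a rise of 1.51 (SE 0.15, limma adjusted p = 3.1e-04). In WT cells Cavin2 lay at 8.44, 12.2 and 10.7 FPKM on 0d and at 20.7, 15.2 and 10.3 FPKM on 5d, where WT_5d replicate 3 overlapped 0d and no change was called. Cavin1, needed with Cav1 for caveolae to form, was the only partner with an interaction called, beside 0.76% of all genes. Its interaction was 0.53 (SE 0.10, limma adjusted p = 0.0492), with 162, 173 and 180.2 FPKM of Cavin1 in WT_0d and 113, 117 and 107 FPKM in WT_5d. In PPARγ/+_0d it lay at 158, 152 and 162 FPKM and in PPARγ/+_5d at 141, 145 and 159.7 FPKM, where the days overlapped. Between the cell types limma called 0 of the 11 partners on either day, beside 1.59% of all genes on 0d and 0.155% on 5d. At an unadjusted p under 0.05 were 5 of the 11 on each day and 6 in the interaction.

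Dysf, the ferlin of mature muscle, stood at 1.96, 1.75 and 1.80 FPKM in WT_0d replicates 1, 2 and 3 and at 7.90, 7.45 and 3.84 FPKM in WT_5d. It stood at 1.55, 2.12 and 1.93 FPKM in PPARγ/+_0d and at 4.16, 4.15 and 3.97 FPKM in PPARγ/+_5d. The days did not overlap in either cell type, and WT_5d replicate 3 fell just below the PPARγ/+_5d libraries, so that the cell types overlapped on 5d. The rise was 1.68 (SE 0.28, limma adjusted p = 0.00494) in WT cells, or 2.01 (SE 0.11, adjusted p = 7.8e-04) without WT_5d replicate 3. In PPARγ/+ cells it was 1.10 (SE 0.13, limma adjusted p = 5.8e-04) and fell short of 2-fold, at 0.98, without PPARγ/+_0d replicate 1. Between the cell types on 5d the difference was -0.56 (SE 0.28, limma adjusted p = 0.447), and without WT_5d replicate 3, on which the overlap rested, -0.89 (SE 0.06, adjusted p = 0.00706), short of 2-fold. The interaction was -0.58 (SE 0.32, limma adjusted p = 0.522) over all 12 libraries and -0.90 (SE 0.17, adjusted p = 0.0221) without WT_5d replicate 3, with adjusted p-values of 0.0105 to 0.739 over all alternatives.

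Myof, the ferlin of myoblasts and of their fusion, was far more abundant. It stood at 80.7, 99.1 and 95.3 FPKM in WT_0d and at 67.5, 64.8 and 74.5 FPKM in WT_5d. It stood at 86.1, 65.7 and 77.8 FPKM in PPARγ/+_0d and at 72.2, 71.2 and 71.4 FPKM in PPARγ/+_5d. The WT libraries on 5d lay below those on 0d, by a fitted -0.41 (SE 0.11, limma adjusted p = 0.0251) that was short of 2-fold, and the PPARγ/+ libraries of the days overlapped. Dysf made up 2.37, 1.74 and 1.86% of the summed FPKM of Dysf and Myof in WT_0d and 10.5, 10.3 and 4.91% in WT_5d. The share was 1.77, 3.13 and 2.42% in PPARγ/+_0d and 5.45, 5.51 and 5.27% in PPARγ/+_5d, above every library of 0d, so Myof remained the more abundant ferlin in all 12 libraries. Exons of Dysf share 105 and 352 bases with antisense genes whose own levels were at most 0.255 FPKM, and since a strand setting of the counting is not given in the sources used here, fragments of such pairs cannot be told apart.

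Ano5, an anoctamin whose loss causes limb-girdle dystrophy, stood at 0.311, 0.7995 and 0.172 FPKM in WT_0d replicates 1, 2 and 3, from 47, 157 and 31 fragments, and at 4.65, 3.17 and 0.451 FPKM in WT_5d, from 922, 476 and 80 fragments. In PPARγ/+_0d it had 2, 1 and 3 fragments (0.0105, 0.00493 and 0.0176 FPKM), and in PPARγ/+_5d 45, 44 and 56 fragments (0.279, 0.263 and 0.387 FPKM). PPARγ/+_0d lay below all other groups, WT_0d replicate 2 was above WT_5d replicate 3, and all PPARγ/+_5d libraries lay below all WT_5d libraries. The rise in WT cells, 2.14 (SE 0.87, limma adjusted p = 0.102), was called at an unadjusted p of 0.0468 and lost under 9 of 16 alternatives. It was lost without WT_0d replicate 1 (2.05), WT_0d replicate 3 (1.75), WT_5d replicate 1 (1.53) or WT_5d replicate 2 (1.80), and without WT_5d replicate 3 it was 3.08 (SE 0.54, adjusted p = 0.0107). In PPARγ/+ cells the fitted rise was 1.87 (SE 0.22, limma adjusted p = 6.9e-04). Its size depended on the processing, at 0.37 with 1 FPKM added and at 4.63 in limma-voom, which was fitted to recovered fragments. The ratio of summed fragments per mapped fragment was 6.31 (95% exact binomial interval 5.50 to 7.27) in WT cells and 28.7 (12.9 to 79.6) in PPARγ/+ cells, intervals that leave out the spread between libraries. With 1 library left out the ratio in WT cells ranged from 3.81 (without WT_5d replicate 1) to 11.9 (without WT_0d replicate 2). Summed over 3 libraries, Ano5 had 235 fragments in WT_0d and 6 in PPARγ/+_0d, 41.8 times (18.9 to 115) more per mapped fragment in WT cells. WT_0d replicate 2 held 157 of the 235, and without it the ratio was 22.1 (9.70 to 62.0). The fitted difference of PPARγ/+ from WT cells on 0d was -2.07 (SE 0.44, limma adjusted p = 0.0638), just outside the threshold, and with 0.01 FPKM added or in limma-voom it was called (adjusted p = 0.0326 and 0.0220, range over all alternatives 0.0220 to 0.193). Without WT_0d replicate 2 it was -1.59 (SE 0.23, limma adjusted p = 0.0680). On 5d it was -2.33 (SE 0.80, limma adjusted p = 0.331), and without WT_5d replicate 3 -3.28 (SE 0.24, adjusted p = 0.00724, range over all alternatives 0.00724 to 0.647), while without WT_5d replicate 1 it was -1.72 (adjusted p = 0.581). The interaction was -0.26 (SE 0.95, limma adjusted p = 0.939) with all libraries and -1.21 (SE 0.57, adjusted p = 0.3195) without WT_5d replicate 3, and it turned to 1.56 with 0.01 FPKM added.

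Trim72, whose protein MG53 is made in striated muscle, had the largest rise of the 10 genes in the main fit of both cell types, though in PPARγ/+ cells that of Cav3 was larger with 0.01 FPKM added and by summed fragments. It stood at 0.162, 0.639 and 0.174 FPKM in WT_0d, from 7, 36 and 9 fragments, and at 45.9, 37.3 and 8.87 FPKM in WT_5d, from 2610, 1608 and 451 fragments. In PPARγ/+_0d it lay at 0.0551, 0.155 and 0.123 FPKM, from 3, 9 and 6 fragments, and in PPARγ/+_5d at 7.77, 8.77 and 9.25 FPKM, from 360, 421 and 384 fragments. The days were far apart, and on 5d WT_5d replicates 1 and 2 were well above the PPARγ/+_5d libraries while WT_5d replicate 3 lay among them. The rise was 6.05 (SE 0.71, limma adjusted p = 0.00146) in WT cells and 5.39 (SE 0.21, adjusted p = 1.6e-05) in PPARγ/+ cells. The interaction was -0.66 (SE 0.79, limma adjusted p = 0.805), or -1.39 (SE 0.53, adjusted p = 0.214) without WT_5d replicate 3, and ranged from -1.39 to -0.21 with 1 library left out at a time. As ratios of summed fragments per mapped fragment these rises were 90.1 (95% exact binomial interval 68.6 to 121) and 76.95 (48.5 to 130.3). Without WT_0d replicate 2, which held 36 of the 52 fragments of WT_0d, the ratio in WT cells was 184 (113 to 322). Without WT_5d replicate 3 the fitted rise in WT cells was 6.79 (SE 0.50, limma adjusted p = 0.00112). On 0d the fitted difference of PPARγ/+ from WT cells was -0.86 (SE 0.46, limma adjusted p = 0.332), and -0.37 (SE 0.26, adjusted p = 0.516) without WT_0d replicate 2. Between the cell types on 5d the difference was -1.52 (SE 0.61, limma adjusted p = 0.391) with all libraries and -2.26 (SE 0.12, adjusted p = 0.00604) without WT_5d replicate 3, with 0.00604 to 0.682 over all alternatives, and -1.08 (adjusted p = 0.651) without WT_5d replicate 1. Exons of Trim72 share 617 bases with the antisense gene Gm15533, which reached at most 0.131 FPKM. For Trim72, Cav3, Ano5 and Dysf, fewer cells that had differentiated and less RNA in each cell cannot be told apart in these bulk libraries.

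**Figure D2:**
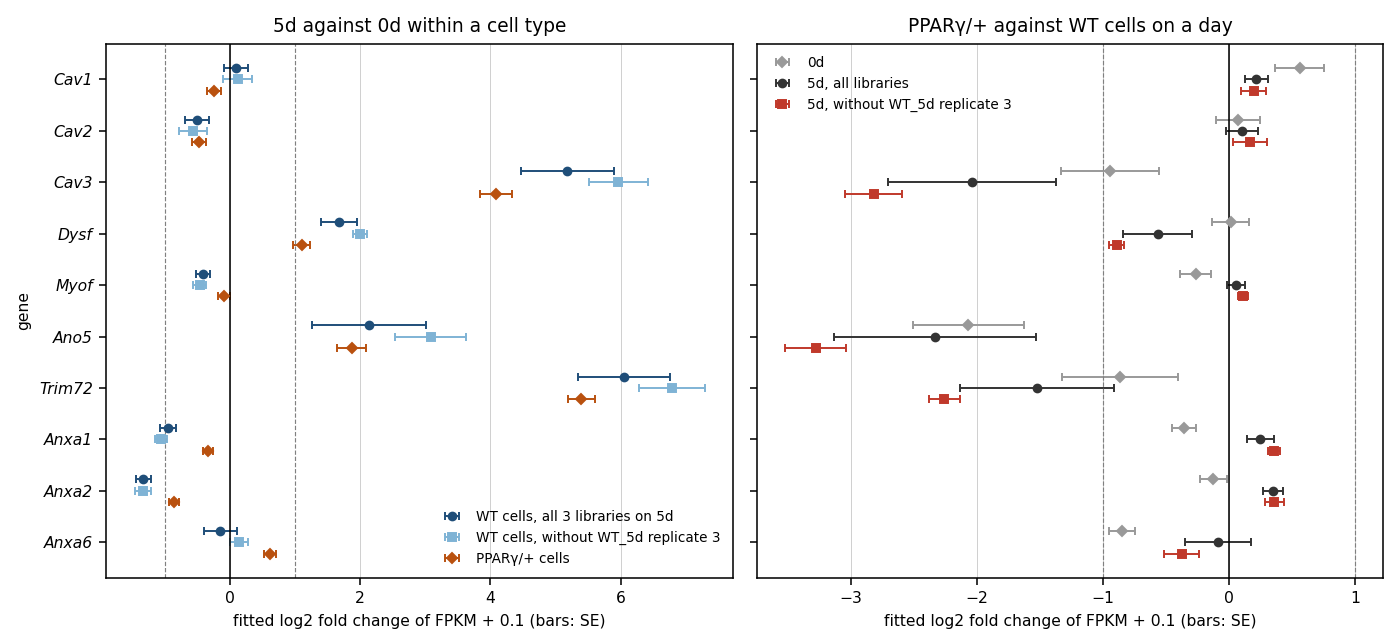
Fitted log2 fold change of FPKM + 0.1 for each gene, on the left between 5d and 0d within WT cells (with and without WT_5d replicate 3) and within PPARγ/+ cells, on the right between PPARγ/+ and WT cells on 0d and 5d (5d with and without WT_5d replicate 3). Bars are standard errors and dashed lines mark 2-fold; Cav3, Ano5 and Trim72 on 5d move from -2.04, -2.33 and -1.52 to -2.82, -3.28 and -2.26 when that library is left out.

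Anxa2, which with S100a10 binds phospholipid and actin at the wound, was the most abundant of the 10 genes in every group by its mean. It stood at 359, 428 and 436 FPKM in WT_0d replicates 1, 2 and 3 and at 153, 169 and 164 FPKM in WT_5d. It stood at 403, 352 and 368 FPKM in PPARγ/+_0d and at 199, 203 and 219 FPKM in PPARγ/+_5d. All libraries on 5d lay below all libraries on 0d, and on 5d each PPARγ/+ library was above each WT library. The fall was -1.33 (SE 0.11, limma adjusted p = 4.8e-04) in WT cells, past 2-fold in all 17 alternatives, and -0.85 (SE 0.08, adjusted p = 2.4e-04), short of 2-fold, in PPARγ/+ cells. The interaction of 0.47 (SE 0.13) had an adjusted p of 0.161 in limma, so the falls were not shown to differ. On 5d the difference between cell types was 0.35 (SE 0.08, limma adjusted p = 0.177). An antisense gene, Gm16144, shares 98 exonic bases with Anxa2 and reached 1.61 FPKM.

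Anxa1, an early binder of torn membrane and a regulator of inflammation, stood at 226, 258 and 259.8 FPKM in WT_0d and at 119, 119 and 149 FPKM in WT_5d. It stood at 209, 177 and 193 FPKM in PPARγ/+_0d and at 149, 154 and 155 FPKM in PPARγ/+_5d. WT cells had more than PPARγ/+ cells on 0d and, narrowly, less on 5d, and WT_5d replicate 3 was the closest to PPARγ/+_5d. The change was -0.95 (SE 0.12, limma adjusted p = 0.00209) in WT cells, just short of 2-fold, and passed 2-fold without WT_5d replicate 3 (-1.05), without WT_0d replicate 1 (-1.01) and with array weights (-1.07). In PPARγ/+ cells it was -0.34 (SE 0.07, limma adjusted p = 0.00888). On 5d the difference between cell types was 0.25 (SE 0.11, limma adjusted p = 0.405), and 0.36 (SE 0.05, adjusted p = 0.0192), short of 2-fold, without WT_5d replicate 3. The interaction was 0.61 (SE 0.14, limma adjusted p = 0.0953) with all libraries and 0.72 (SE 0.12, adjusted p = 0.0115) without WT_5d replicate 3, and its adjusted p ranged from 0.00128 to 0.235 over all alternatives.

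Anxa6, which has a doubled annexin core and forms the repair cap, was the annexin that differed most between the cell types on 0d. It stood at 129, 165 and 139 FPKM in WT_0d and at 174, 143 and 87.4 FPKM in WT_5d. It stood at 77.4, 76.2 and 85.8 FPKM in PPARγ/+_0d and at 109, 121 and 138 FPKM in PPARγ/+_5d. PPARγ/+_0d lay below the other 3 groups, and WT_5d spanned a range from near PPARγ/+_0d to the highest library of all. On 0d the difference of PPARγ/+ from WT cells was -0.85 (SE 0.11, limma adjusted p = 0.0212), past the p threshold and short of 2-fold, with all 3 PPARγ/+ libraries lower. Its adjusted p in limma passed 0.05 without WT_0d replicate 3 (0.0617) or PPARγ/+_0d replicate 1 (0.0595), 2 (0.0888) or 3 (0.0758), and ranged from 0.00215 to 0.146 over all alternatives, while the change stayed between -0.92 and -0.75 with 1 library left out. In PPARγ/+ cells Anxa6 changed by 0.62 (SE 0.10, limma adjusted p = 0.00244) between days, also short of 2-fold. In WT cells the change was -0.14 (SE 0.26, limma adjusted p = 0.700), and 0.14 without WT_5d replicate 3, and the interaction was 0.76 (SE 0.29, adjusted p = 0.321) with all libraries and 0.475 (SE 0.18, adjusted p = 0.206) without it. On 5d the difference between cell types was -0.09 (SE 0.26, limma adjusted p = 0.911), and -0.37 (SE 0.14, adjusted p = 0.162) without that library.

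A further 29 genes of membrane repair were read beside the members: other ferlins and annexins, S100 proteins, calpains, Ahnak proteins, fusion proteins and the ESCRT machinery. Of these 25 were tested, and 4 (Otof, Fer1l4, Fer1l6 and Syt7) fell under the filter. In WT cells 2 rose (Capn3 and Bin1), beside 8.94% of all genes, and in PPARγ/+ cells 1 (Capn3), beside 9.11%. No fall was called by limma, beside 7.53% of all genes in WT and 6.06% in PPARγ/+ cells. At an unadjusted p under 0.05 there were 16 of 25 in each cell type, and the median change came to -0.26 (WT) and -0.12 (PPARγ/+). Capn3, the muscle calpain, stood at 2.06, 1.91 and 1.96 FPKM in WT_0d and at 8.43, 7.18 and 5.78 FPKM in WT_5d. In PPARγ/+_0d it lay at 1.93, 2.76 and 2.86 FPKM and in PPARγ/+_5d at 5.66, 5.18 and 5.29 FPKM. The days were apart in both cell types, with rises of 1.78 (SE 0.15, limma adjusted p = 5.2e-04) and 1.09 (SE 0.15, adjusted p = 0.00145). Bin1, a protein of membrane bending at T-tubules, stood at 100.2, 106 and 84.3 FPKM in WT_0d and at 299, 269.7 and 127 FPKM in WT_5d, a rise of 1.17 (SE 0.32, limma adjusted p = 0.0313). In PPARγ/+ cells Bin1 lay at 59.8, 69.5 and 70.6 FPKM on 0d and at 102, 108 and 108 FPKM on 5d, a change of 0.67 that was short of 2-fold. Neither between the cell types on 0d or 5d nor in the interaction did limma call any of the 25. Of all genes 1.59, 0.155 and 0.76% were called there. Of the 25, 8, 6 and 8 had an unadjusted p under 0.05.

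The S100 partners of annexins were abundant. S100a11, a partner of annexins, stood above every member, at 1260.2, 1389 and 1431 FPKM in WT_0d and at 600.2, 726 and 957 FPKM in WT_5d. It stood at 1586, 1403 and 1451 FPKM in PPARγ/+_0d and at 749.9, 828 and 848 FPKM in PPARγ/+_5d. Like Anxa2 it was lower in every library on 5d, by -0.86 (SE 0.21, limma adjusted p = 0.0193) and -0.87 (SE 0.10, adjusted p = 6.8e-04) in WT and PPARγ/+ cells, short of 2-fold. S100a10, which binds Anxa2, had a mean of 414 FPKM in both groups on 0d and of 251 and 305 FPKM in WT_5d and PPARγ/+_5d, above the mean of Anxa2 in each group.

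Lists of markers of differentiation and of other cells were read beside the members, and their part in the results above was not tested. Of all genes, 8.94% rose and 7.53% fell in WT cells, and 9.11% rose and 6.06% fell in PPARγ/+ cells. Between the cell types 1.59% were called on 0d and 0.155% on 5d, and 0.76% in the interaction. These shares are to be held beside every count of markers called here and below. All 9 skeletal myogenic markers were tested: 6 rose and 1 (Myf5) fell in WT cells and 8 rose in PPARγ/+ cells. Between the cell types 3 (Myf5, Des and Cdh15) were called lower in PPARγ/+_0d and 0 on 5d, where 5 had an unadjusted p under 0.05, and Myf5 was called in the interaction. Their summed level was 210.2, 355 and 157 FPKM in WT_0d and 4301, 3308 and 985 FPKM in WT_5d, led by Des on 0d and Acta1 on 5d. It was 68.6, 77.0 and 108 FPKM in PPARγ/+_0d and 1067, 1218 and 1253 FPKM in PPARγ/+_5d. WT_5d replicate 3 thus lay below the PPARγ/+_5d libraries in this sum, of which Acta1 made up 491 FPKM in that library. By single markers it lay below them for Acta1, Des, Cdh15 and Myf5, among them for Myod1 and Myog, and above them for Myh3, Tnnt3 and Ckm. Of the members it lay below them for Dysf and above them for Cav3 and Ano5. WT_0d replicate 2 was the highest of 0d in the sum, as it was for Cav3, Ano5 and Trim72. Proliferation markers all fell, 5 of 5 in each cell type, from summed levels of 152 to 231 FPKM on 0d to 16.7 to 25.1 FPKM on 5d, and Mki67 went from 35.1 to 59.4 FPKM on 0d to 3.31 to 6.43 FPKM on 5d.

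Some adipocyte markers differed between the cell types. Of 7, 6 were tested, 4 (Adipoq, Plin1, Fabp4 and Cfd) rose in PPARγ/+ cells between days and 0 were called in WT cells, where 0 had an unadjusted p under 0.05. Plin1 reached 0.1 FPKM on 0d in 1 library only and Cfd in 0, so both entered through PPARγ/+_5d. Adipoq and Fabp4 were called higher in PPARγ/+ than WT cells on both days, from at most 5 fragments in any WT library, so that they entered through the PPARγ/+ libraries. Slc2a4 was lower by its mean in PPARγ/+ than WT cells on both days and was not called, and Lep was at 0 in all 12 libraries. Summed, the 7 genes lay at 0.0767 to 0.333 FPKM in the 6 WT libraries, at 5.11, 2.95 and 4.33 FPKM in PPARγ/+_0d and at 13.3, 20.1 and 67.3 FPKM in PPARγ/+_5d, led by Adipoq at 40.5 FPKM in PPARγ/+_5d replicate 3. Endothelial markers summed to at most 0.375 FPKM (1 of 6 tested, 0 called, 0 at an unadjusted p under 0.05), with Tek mostly the highest. Macrophage and leukocyte markers summed to 2.07 to 5.13 FPKM, nearly all Cd68, the 1 of 6 tested, which was not called between days though its unadjusted p was under 0.05 in both cell types, while Ptprc was at most 0.00649 FPKM. Of 5 smooth muscle markers 4 were tested, Acta2 and Lmod1 rose and Cnn1 fell in WT cells, and Lmod1 rose and Cnn1 fell in PPARγ/+ cells. Cnn1 had at most 7 fragments in any library on 5d, so that it passed the filter through its libraries on 0d. Their sum, led by Acta2, was 472 to 626 FPKM on 0d, 1106 to 1322 FPKM in WT_5d and 829 to 989.6 FPKM in PPARγ/+_5d.

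Genes closest in pattern to each member, up to 3 for each, were found by the root mean square distance between centred log2(FPKM + 0.1) profiles over the 12 libraries, among 11680 genes with a mean of at least 1 FPKM (11681 for Ano5). For Cav3, Myoz2 and Cacna1s lay at distances of 0.2747 and 0.3065 log2 units. For Trim72 they were Hrc, Myl4 and Lmod3, at 0.3062, 0.3263 and 0.3385, and for Ano5 Tspan32, Cd200 and Klhl30, at 0.365, 0.544 and 0.558. Dysf was closest to Unc93b1, Iffo1 and Vamp5 (0.139 to 0.153) and Myof to Axl, Man2a1 and Ergic1 (0.0587 to 0.0869). Cav1 was closest to Snx7, Tcaim and Golim4 (0.152 to 0.171) and Cav2 to Far1, 1700025G04Rik and Cntln (0.101 to 0.115). Anxa1 was closest to Adss and Snhg17 (0.0590 and 0.0861), Anxa2 to Rpa3, Nup85 and Zfp101 (0.0871 to 0.0890), and Anxa6 to Mfap3l, Bves and Cdk5r1 (0.124 to 0.147). Among the members themselves Cav2 and Myof were the nearest pair, at 0.203, and Anxa2 and Trim72 the farthest, at 3.54. Cav3 lay 0.609 from Trim72 and 2.62 from Cav1, so that by pattern it was nearer to the repair gene than to the other caveolins.

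In the mouse genome (GRCm38) 4 of the 10 genes lie on chromosome 6. Cav2 (ENSMUSG00000000058, 17281185 to 17289115) and Cav1 (ENSMUSG00000007655, 17306335 to 17341452) are neighbours there on the plus strand, and Dysf (ENSMUSG00000033788) and Cav3 (ENSMUSG00000062694) follow from 84008590 and from 112459505. Ano5 (ENSMUSG00000055489, from 51511029) and Trim72 (ENSMUSG00000042828, from 128003949) lie on the plus strand of chromosome 7. Anxa1 (ENSMUSG00000024659) and Myof (ENSMUSG00000048612) lie on the minus strand of chromosome 19, Anxa2 (ENSMUSG00000032231) on chromosome 9 and Anxa6 (ENSMUSG00000018340) on chromosome 11. All 10 are annotated as protein coding.

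Promoters of the 3 genes with the largest fitted rises are shown because these genes moved in the same direction with differentiation. RefSeq sequences of GRCm38.p6 were held for 9 of the 10 genes (all but Anxa6), with 11 starts in all. The 250 bases before each start were searched on both strands for the E-box CANNTG, the motif of myogenic factors, and for its forms CAGCTG and CAGGTG, which are contained in it. CAGCTG was found for Cav3 alone, beginning at position -106 from the start, and 13% of 32851 promoters held it. CAGGTG was found for Ano5, at -187, and for the second start of Cav1, at -158, beside 17.2% of promoters. CANNTG was held at least once by 66.2% of promoters and 2 or more times by 31.8%. Trim72 held 3 matches to it, Cav2 and Cav3 held 2 each, and Ano5 and each start of Cav1 held 1. Myof, Anxa1, Anxa2 and both starts of Dysf held 0. The PPAR response element, searched as a pair of AGGTCA sites with any 1 base between, was found for 0 of the 11 starts and in 0.0335% of promoters. In the sequences, 5′ to 3′ on the gene's strand, capitals mark CAGCTG or CAGGTG on either strand. The Trim72 start of RefSeq lies inside the annotated gene, and a match or its absence is a description of these letters only.
Cav3, chr6:112459255-112459504, plus strand: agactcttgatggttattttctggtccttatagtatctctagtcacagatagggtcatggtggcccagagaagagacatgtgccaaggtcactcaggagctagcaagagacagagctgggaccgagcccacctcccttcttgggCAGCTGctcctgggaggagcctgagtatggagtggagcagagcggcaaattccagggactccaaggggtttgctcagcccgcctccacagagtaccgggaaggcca
Trim72, chr7:128004128-128004377, plus strand: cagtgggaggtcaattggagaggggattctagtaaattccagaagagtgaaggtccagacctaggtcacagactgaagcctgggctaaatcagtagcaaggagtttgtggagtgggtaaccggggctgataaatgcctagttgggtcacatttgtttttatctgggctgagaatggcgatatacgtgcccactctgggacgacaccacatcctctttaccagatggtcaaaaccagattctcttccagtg
Ano5, chr7:51510779-51511028, plus strand: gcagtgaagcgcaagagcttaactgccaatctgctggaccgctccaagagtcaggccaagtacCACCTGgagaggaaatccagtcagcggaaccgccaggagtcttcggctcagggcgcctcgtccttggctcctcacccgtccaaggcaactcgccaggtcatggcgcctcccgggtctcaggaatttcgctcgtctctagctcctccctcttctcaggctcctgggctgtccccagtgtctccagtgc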

How the data were processed

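RNA of 12 libraries, 3 in each of 4 groups, was sequenced as read pairs. The authors used Trim Galore for trimming, STAR for alignment and HTSeq for counting per Ensembl gene, and deposited FPKM values. The study's methods name GRCm38 and the submitters' processing notes mm9, and the files hold no coordinates, so positions are those of GRCm38. A deposited table of log2(FPKM + 1) held the same values, with a largest difference of 5.3e-14, and was used for that check only. Raw counts were not used here. Any 2 libraries differed at 21594 genes or more, and 0 columns lacked a sample.

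Symbols were found for 46488 of 46983 genes. Fragments were recovered as FPKM times exonic length times mapped fragments, the last taken from the commonest step of the values. They were whole, within 0.001, for 21058 of the 27138 genes above 0 by the annotated length (GENCODE) and for 6080 by an inferred length. Of the members, Myof, Ano5 and Anxa1 had an inferred length.

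limma (version 3.58.1, R 4.3.3, empirical Bayes with trend) was fitted to log2(FPKM + 0.1) of 18023 genes from the deposited FPKM, in place of the study's count test, and limma-voom on the recovered fragments was run as an alternative. Comparisons of 2 groups used their 6 libraries, and the interaction used 12. The fits were tested on simulated data. Python 3.11.15, numpy 2.4.6, pandas 2.3.3, scipy 1.17.1 and matplotlib 3.10.9 handled tables and plots. Alternatives changed the pseudocount, filter, scaling, weights, libraries fitted, p threshold, block and test.

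The members and lists were chosen with earlier results of these data known. All members are named with every value. Of the partner lists each comparison names up to 3 called rises and 3 called falls with a mean of at least 1 FPKM, and genes above every member. Pacsin1, Pacsin3 and the called marker genes were named after their values were seen. Some genes close in pattern to a member are not shown.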

Additional observations from a re-analysis of the deposited data

How the results depend on the processing

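The changes of the 10 members and the counts of members and genes called were fitted again under other settings, and the partner and marker genes were not. Of the member values, 811 kept their sign and stayed called or uncalled, whatever their size. A further 24 reversed sign, 18 gained a call and 12 lost one, and the cause was not tested. With 1 FPKM added, WT cells between days had 1441 genes called, and PPARγ/+ cells had 1241 genes and 2 members (Dysf at 0.83 and Ano5 at 0.37 were lost). Under a filter of 1 FPKM, which left Ano5 untested, PPARγ/+ cells had 1806 genes. Ano5 in WT cells lost its call with 0.01 FPKM added, without a filter, with quantile normalization, by adjusted p and in limma-voom, while its change stayed between 2.10 and 2.39.

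Between cell types on 0d, genes called were 115 with 1 FPKM added, 107 without a filter and 485 in limma-voom, and 1 member (Ano5) was called with 0.01 FPKM added and in limma-voom. On 5d they were 8 with 1 FPKM added, 71 with 0.01 FPKM added, 199 with all 12 libraries in one fit and 502 with array weights, where 3 members (Cav3, Ano5 and Trim72) were called. The interaction with array weights had 2070 genes and 5 members (Dysf, Myof, Anxa1, Anxa2 and Anxa6), in a run where some weights stopped short of convergence. Myof in PPARγ/+ cells turned to 0.0421 with median-ratio scaling and 0.0242 with quantile normalization, and Dysf on 0d to -0.0230 with median-ratio scaling. The interaction of Cav3 turned to 0.66 with 0.01 FPKM added and 0.20 in limma-voom, and that of Ano5 to 1.56 and 2.24.

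Leaving out 1 library at a time, genes called ranged from 55 to 137 on 0d, from 1 to 723 on 5d and from 42 to 527 for the interaction, and members called from 0 to 3 on 5d and from 0 to 2 for the interaction. Signs crossed 0 for Cav1 (-0.11 to 0.24) and Anxa6 (-0.36 to 0.14) in WT cells, and for Myof in PPARγ/+ cells (-0.19 to 0.0014). They crossed on 0d for Cav2 (-0.11 to 0.20) and Dysf (-0.0786 to 0.13), and on 5d for Cav2 (-0.0019 to 0.19) and Anxa6 (-0.37 to 0.13). In the interaction they crossed for Cav2 (-0.0914 to 0.22) and Ano5 (-1.21 to 0.34).

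The replicate block, with replicate numbers as blocks, left 0 genes called on 0d, 0 on 5d and 61 for the interaction. For pairing, the mean of its group was first subtracted from each gene's log2 value, and these deviations were correlated between libraries of different groups. Libraries of the same number had correlations of -0.0678 to 0.0834 over 18 pairs, 0 of them over 0.1. The numbers were therefore not taken to pair the libraries. Only 2 of the 12 libraries correlated best with their own number in every other group.

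Limits: 3 libraries a group leave small differences undetected, and a p above its threshold does not show that cell types are alike. RNA of whole cultures says nothing of single cells, protein or repair itself. Fragments were recovered from FPKM and not counted from reads. Fitted changes of Cav3, Ano5 and Trim72 depend on the FPKM added.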
